A study of Mus musculus with 16 samples.

Results

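Cathepsins H, B, D, L, S, Z, C and A and legumain are proteases of endosomes and lysosomes, encoded by Ctsh, Ctsb, Ctsd, Ctsl, Ctss, Ctsz, Ctsc, Ctsa and Lgmn. The rows of the deposited table with these 9 symbols, of 19540 genes in all, were followed in T cells of mouse visceral adipose tissue (VAT). Treg (regulatory CD4 T cells, which depend on the transcription factor Foxp3 and hold immune responses in check) and Tconv (conventional T cells) had been sorted by flow cytometry from C57BL/6JRcc mice aged 12 weeks. In KO mice, Hpgd, which encodes the prostaglandin-inactivating enzyme hydroxyprostaglandin dehydrogenase, was deleted in Treg by a YFP-tagged Cre driven from Foxp3 acting on a floxed Hpgd allele, and WT mice were the controls. The series asked what loss of Hpgd in Treg does to these cells. RNA-seq libraries numbered 3 for Treg WT, 4 for Treg KO, 4 for Tconv WT and 5 for Tconv KO. Titles alone separate WT from KO, since the label for the mouse line, with its floxed Hpgd and Foxp3-driven Cre, is the same in all 16 libraries. Which of these alleles the WT mice carried cannot be read from it. The series describes 5 deleted and 4 WT animals, but the labels tie no library to an animal, so p-values measure the spread between these libraries, which may be technical.

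Cathepsins are made as inactive precursors, are activated in acid compartments and cut proteins that reach the lysosome. Most are cysteine proteases of the papain family, while cathepsin D is an aspartic and cathepsin A a serine protease, and legumain, a cysteine protease of another family, cuts after asparagine. In antigen-presenting cells they trim antigens and the invariant chain that guards MHC class II. In T cells they take part in turnover of lysosomal content, and cathepsin C activates the granzymes of cytotoxic granules.

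Libraries held 3.39 to 9.26 M reads, except Tconv KO 3 with 56.7 M. Hpgd stood at 73.1, 56.0 and 4.31 in Treg WT and at 3.41, 2.54, 2.42 and 1.00 in Treg KO, so the library labelled Treg WT 3, with 3 reads, had about as little Hpgd as the KO libraries. Foxp3 lay at 279 to 616 in Treg and 1.00 to 39.3 in Tconv, and Cd4 at 3859 to 7949 in all libraries. Tconv WT 1 stood apart with neutrophil markers at a summed level of 14854 against at most 198 elsewhere, and Tconv WT 3 with red cell and platelet markers at 158945 against at most 1497 elsewhere. Results that rest on Tconv WT 1, Tconv WT 3 or Tconv KO 3 are given with and without them, a choice made after seeing the data. Levels are the deposited normalised values, read counts divided by a size factor, plus 1, so a gene without reads is listed at 1.00. Differences are on the log2 scale of that value plus a pseudocount of 1, which understates changes of low genes. Each adjusted p comes from limma after Benjamini-Hochberg adjustment over the 14319 genes tested, and a gene passed when it was under 0.05. In bulk libraries, fewer cells that express a gene and less RNA per cell cannot be told apart.

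The 250 bases before the annotated start are shown for Ctsz and Ctss, because these 2 members differed between the cell types in opposite directions and both had an entry among the RefSeq promoters (GRCm38.p6), which held 7 of the 9 members. Capitals mark 2 copies of GGGCGG that share a base in Ctsz, starting 32 and 27 bases before the start, and GAAANNGAAA in Ctss, starting 21 bases before it. The Ctsz stretch is chr2:174439040-174439289, minus strand, and the Ctss stretch chr3:95526536-95526785, plus strand, both printed in the direction of transcription.
Ctsz: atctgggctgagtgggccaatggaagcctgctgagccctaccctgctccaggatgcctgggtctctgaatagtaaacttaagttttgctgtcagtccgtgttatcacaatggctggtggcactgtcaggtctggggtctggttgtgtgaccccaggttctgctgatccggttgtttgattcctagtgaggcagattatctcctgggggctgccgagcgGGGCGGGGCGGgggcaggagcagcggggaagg
Ctss: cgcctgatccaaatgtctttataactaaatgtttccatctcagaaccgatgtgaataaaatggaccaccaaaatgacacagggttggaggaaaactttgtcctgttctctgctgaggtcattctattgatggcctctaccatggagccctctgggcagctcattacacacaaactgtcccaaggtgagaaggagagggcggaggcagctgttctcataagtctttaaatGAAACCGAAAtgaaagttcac

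GGGCGG is the core of the GC box, GAAANNGAAA the core of the interferon-stimulated element, and CACGTG an E-box core found in elements bound by TFEB, a regulator of lysosomal genes. These letters were chosen after the sequences had been seen and were searched on both strands of windows of 300 bases, from 250 before to 50 after the start. CACGTG was present in 4 of the 9 windows of the members, for Ctsa, Ctsd, Ctsl and Lgmn, and in 7.15% of all 32851 windows. GAAANNGAAA was present in 1 of the 9, that of Ctss, and in 3.443% of all windows. GGGCGG was present in 5 of the 9, those of Ctsz and Ctss included, and in 35.66% of all windows. The Ctss window had a GC content of 44% and 5 CpG dinucleotides, and the Ctsd window 67.33% and 33, against a median of 52.67% and 7 over all windows. Such matches describe letters and show no binding.

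All 9 members passed the filter on low values and were tested. They had been chosen with earlier results of these data known, so their counts beside all genes are a description. In fat of WT mice, Ctsh and Ctsz were higher in Treg than in Tconv and Ctss was lower, so 3 of 9 members passed, against 4.18% of all genes tested. The 2 higher members compare with 2.2% of genes called higher, and the 1 lower member with 1.98% called lower. In KO mice the same 3 genes passed in the same directions, against 6.81% of all genes (4.16% higher, 2.65% lower). Ctsh and Ctsz lay wholly above Tconv in both genotypes, as did 5.87% of all genes in WT and 6% in KO, and Ctss and Ctsd wholly below it in WT, as did 6.1%. Groups without overlap in either direction made up 12% of genes in WT and 10.7% in KO. The median difference of the 9 members was 0.44 in WT and 0.35 in KO, beside -0.004 and 0.035 over all genes. The plot of single libraries shows that Ctsh separated the cell types most widely, while Ctsb, Ctsc, Ctsa and Ctsd stayed within a narrow band.

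**Figure D1:**
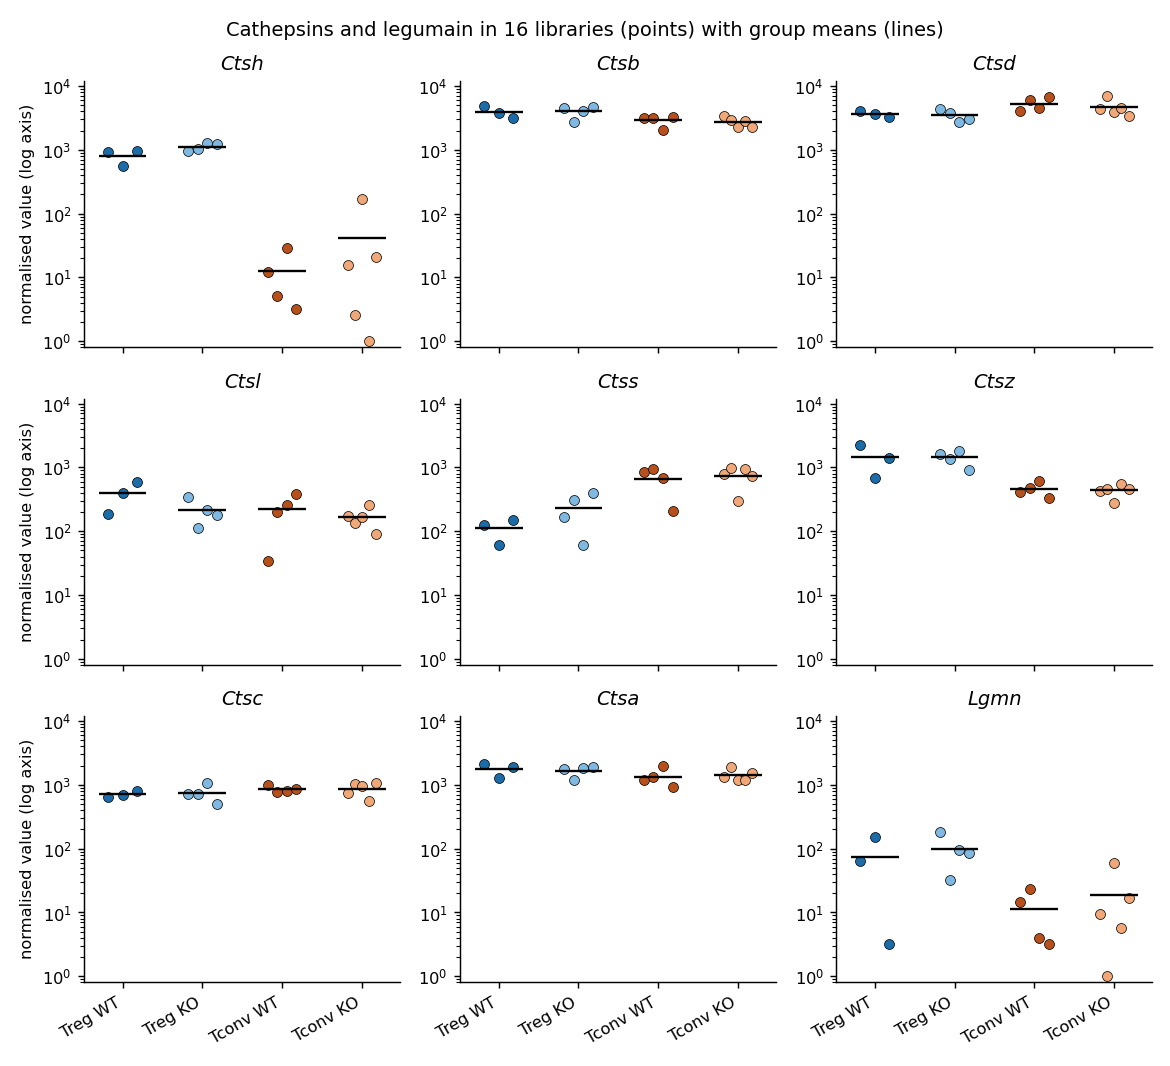
Deposited normalised values of the 9 members (vertical log axis) in each of the 16 libraries (points) by group, with the group mean as a line; a value of 1 is a gene without reads. Ctsh lies at 557 or more in every Treg library and at 169 or less in every Tconv library, and Ctss leans the other way.

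Ctsh encodes cathepsin H, which removes single amino acids from the ends of peptides. Its gene spans 90054152 to 90076089 on the plus strand of chromosome 9 (GRCm38, the build called mm10). Ctsh read 929, 557 and 953 in Treg WT and 977, 1040, 1285 and 1214 in Treg KO. In Tconv WT it read 12.4, 5.06, 29.2 and 3.25, from 11, 2, 28 and 2 reads. In Tconv KO it read 15.6, 2.56, 169, 1.00 and 20.5, where 169 belongs to Tconv KO 3. Every Treg library lay above every Tconv library. The log2 difference was 6.29 in WT (SE 1.05, adjusted p = 0.00130), a 70.8-fold ratio of means. In KO it was 6.39 (SE 0.92, adjusted p = 0.000156), a ratio of 27.8. The KO ratio rests on a Tconv KO mean of 41.6 that includes the 169 of Tconv KO 3, beside a median of 15.6. Ctsh passed in all 17 alternatives in WT and all 19 in KO, at adjusted p from 5.48e-05 to 0.0131 and from 2.39e-06 to 0.00107. Its size depended on the low Tconv values: it was 5.29 in WT and 5.30 in KO with a pseudocount of 10, 7.28 in WT without Tconv WT 1 and Tconv WT 3, and 7.31 in KO without Tconv KO 3.

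In Tconv KO 3, the Tconv library with the most Ctsh, Foxp3 read 1.89 from 7 reads and the Treg marker Il2ra 1299. Il2ra read at most 69.4 in the other Tconv KO libraries, and up to 729 in Tconv WT, in Tconv WT 3. The other Treg markers listed, Ctla4 and Ikzf2, read 1911 and 370 in Tconv KO 3, each the lowest among the Tconv KO libraries. All 4 summed to 3579 in this library, in a range of 2790 to 4293 over the Tconv KO libraries, so the sum did not show the high Il2ra. Macrophage and monocyte markers (11 of the 12 listed were in the table) summed to 13.1 to 80.5 in Treg WT, 43.9 to 313 in Treg KO, 37.2 to 1038 in Tconv WT and 37.7 to 70.2 in Tconv KO. Lyz2, C1qa and C1qc had no reads in any Treg WT library, while Mertk, Itgam and Ms4a7 had reads in each of them. The value of 313 was that of Treg KO 1, in which C1qb read 87.8, Csf1r 73.3, C1qc 43.2 and Lyz2 39.6. The value of 1038 was that of Tconv WT 1, in which Lyz2 alone read 833. Dendritic cell markers (7) summed to 99.4 to 245 in Treg WT and 181 to 321 in Treg KO. In Tconv they summed to 163 to 391 in WT and 64.9 to 287 in KO. Among them, Itgax had reads in Tconv WT 3 and Tconv KO 4 only, while Zbtb46 and Xcr1 had reads in every Treg and Tconv library. The part of such cells in the level of Ctsh was not tested.

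Ctsz encodes cathepsin Z, a carboxypeptidase, and spans 174427493 to 174439039 on the minus strand of chromosome 2. Ctsz read 2222, 680 and 1401 in Treg WT and 1637, 1373, 1813 and 915 in Treg KO. It read 408, 478, 609 and 331 in Tconv WT and 433, 455, 272, 555 and 456 in Tconv KO. Neither genotype had a Tconv library as high as its lowest Treg library, although Treg WT 2 at 680 came close to Tconv WT 3 at 609. The log2 difference was 1.53 in WT (SE 0.35, adjusted p = 0.0155) and 1.71 in KO (SE 0.31, adjusted p = 0.00134), at ratios of means of 3.15 and 3.31. In KO mice Ctsz passed in all 19 alternatives. In WT it passed in 12 of 17, and the call was lost without Treg WT 1 (adjusted p = 0.0950), the library labelled Treg WT 3 (0.0682) or Tconv WT 4 (0.0509), with only the WT groups in the fit (0.0600) and by voom, limma's weighted test for reads (0.0741).

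Ctss encodes cathepsin S, an endopeptidase that also works at neutral pH and cuts the invariant chain, and spans 95526786 to 95556403 on the plus strand of chromosome 3. Ctss read 127, 60.3 and 152 in Treg WT, and 167, 307, 60.5 and 401 in Treg KO. It read 856, 945, 669 and 205 in Tconv WT and 782, 970, 299, 928 and 729 in Tconv KO. All Treg WT libraries lay below all Tconv WT libraries, but in KO the groups overlapped, since Treg KO 2 and Treg KO 4 exceeded Tconv KO 3. The log2 difference was -2.44 in WT (SE 0.60, adjusted p = 0.0238) and -1.86 in KO (SE 0.53, adjusted p = 0.0371), so mean levels were 5.96-fold and 3.18-fold lower in Treg. Macrophages are known to be rich in cathepsin S. Their markers summed to 1038 in Tconv WT 1, where Ctss read 856, to 48.7 in Tconv WT 2, where it read 945, and to 52.2 in Tconv KO 2, where it read 970, and their part in the level of Ctss was not tested.

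The Ctss calls were less stable than those of Ctsh. In WT the call was lost without Treg WT 2 (adjusted p = 0.0950), Tconv WT 1 (0.0639) or Tconv WT 2 (0.0764), with Tconv WT 1, Tconv WT 3 and Tconv KO 3 all left out (0.127), and by voom (0.239). In KO it was lost without Treg KO 1 (0.0915), Treg KO 3 (0.167), Tconv KO 1 (0.0799), Tconv KO 2 (0.0879), Tconv KO 4 (0.0863) or Tconv KO 5 (0.0739), with no filter on low values (0.0507) and by voom (0.223). Its difference stayed negative in every alternative, from -2.94 to -2.05 in WT and from -2.23 to -1.32 in KO.

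**Figure D2:**
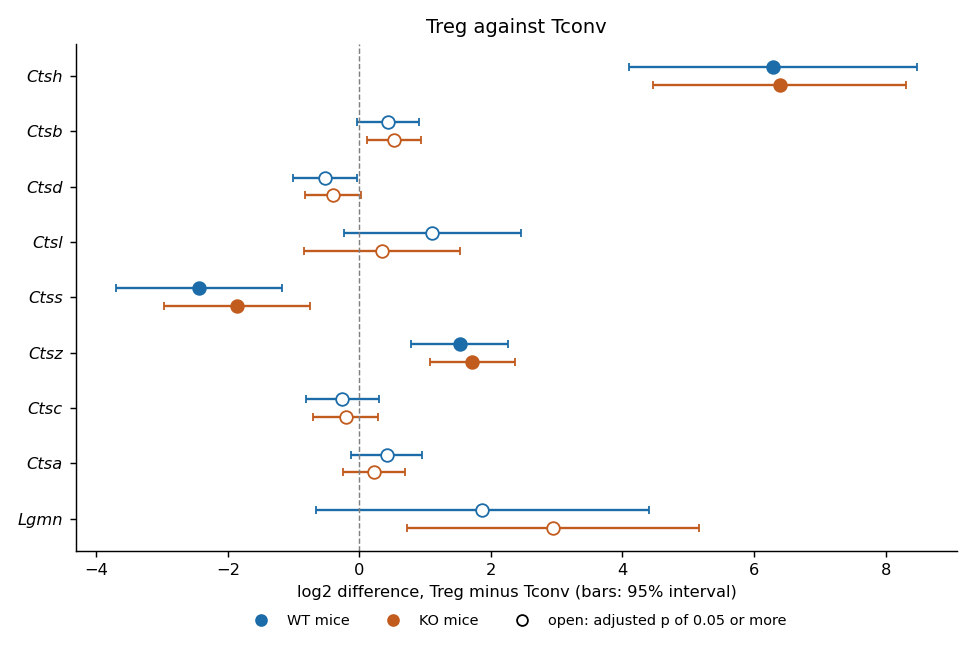
Log2 difference of Treg minus Tconv (horizontal axis) for each member in WT mice (blue) and KO mice (orange), with 95% intervals as bars and filled points where the adjusted p was under 0.05. Ctsh and Ctsz lie to the right and Ctss to the left in both genotypes.

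Lgmn encodes legumain, which also processes other lysosomal proteases, and spans 102394084 to 102439813 on the minus strand of chromosome 12. Lgmn was low throughout, at 63.1, 152 and 3.21 in Treg WT and 181, 31.7, 95.9 and 85.7 in Treg KO. In Tconv WT it read 14.4, 23.3, 4.02 and 3.25, and in Tconv KO 9.51, 1.00, 60.3, 5.79 and 17, with 60.3 in Tconv KO 3. The low Treg WT value was that of the library labelled Treg WT 3 and came from 2 reads, fewer than the floor of 3 reads that a count of 0 allows. Group means differed by 1.87 in WT (SE 1.21, adjusted p = 0.492) and 2.94 in KO (SE 1.06, adjusted p = 0.117), and the groups overlapped in both genotypes. Without Tconv KO 3 the KO difference was 3.56 and passed (adjusted p = 0.0473), its sole pass among 19 alternatives. With Tconv WT 1 and Tconv WT 3 left out as well, Lgmn did not pass in KO.

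Ctsb encodes cathepsin B, an endopeptidase that also acts as a dipeptidyl carboxypeptidase, and lies on chromosome 14 at 63122462 to 63145923, plus strand. It averaged 3919 ± 852 (SD, n = 3) in Treg WT, 3998 ± 869 (n = 4) in Treg KO, 2902 ± 586 (n = 4) in Tconv WT and 2740 ± 468 (n = 5) in Tconv KO. The differences of 0.44 in WT (adjusted p = 0.346) and 0.53 in KO (adjusted p = 0.128) did not pass, except in KO without Treg KO 2 (0.70, adjusted p = 0.0338). Its exons share 774 bases with those of Fdft1 on the other strand. Reads from this stretch cannot be assigned without strand.

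Ctsd encodes cathepsin D, the main aspartic protease of lysosomes, and lies on chromosome 7 at 142375911 to 142388038, minus strand. Ctsd read 4051, 3612 and 3283 in Treg WT and 4091, 5997, 4540 and 6685 in Tconv WT. Thus every Tconv WT library exceeded every Treg WT library, as for 6.1% of all genes, but by as little as the step from 4051 to 4091. The difference of -0.52 (SE 0.23) had an adjusted p of 0.256. In KO mice Ctsd ranged from 2711 to 4314 in Treg and from 3437 to 7026 in Tconv, and the groups overlapped (-0.40, adjusted p = 0.298). Ctsd shares 808 exon bases with Gm49369 on the same strand, so its level is uncertain.

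Ctsl encodes cathepsin L, an endopeptidase, and lies on chromosome 13 at 64359337 to 64370890, minus strand. Ctsl read 188, 394 and 589 in Treg WT and 34.1, 200, 262 and 385 in Tconv WT, with the lowest value in Tconv WT 1. It ranged from 113 to 347 in Treg KO and from 90.7 to 257 in Tconv KO. Neither the difference in WT (1.11, adjusted p = 0.422) nor that in KO (0.35, adjusted p = 0.828) passed, and the groups overlapped. The WT difference was 0.37 without Tconv WT 1, and 0.34 without both Tconv WT 1 and Tconv WT 3. An antisense gene, Gm47123, shares 1742 of its exon bases and a processed pseudogene, Gm49230, 395.

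Ctsc encodes cathepsin C (dipeptidyl peptidase 1) and lies on chromosome 7 at 88278085 to 88310888, plus strand. Ctsc was the most even member, ranging only 2.16-fold over the 16 libraries, from 498 to 1073. Its differences were -0.26 in WT (adjusted p = 0.714) and -0.21 in KO (adjusted p = 0.721). Ctsa encodes cathepsin A, the carboxypeptidase that also shields beta-galactosidase and neuraminidase 1 in the lysosome, and lies on chromosome 2 at 164832873 to 164841032, plus strand. Ctsa ranged 2.33-fold, from 924 to 2154, with differences of 0.42 in WT (adjusted p = 0.463) and 0.22 in KO (adjusted p = 0.681). Its exons overlap those of Neurl2 (324 bases) and Pltp (495 bases), and those of Ctsz share 10 bases with Nelfcd. Ctsh, Ctss, Ctsc and Lgmn share no exon bases with another annotated gene.

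To compare levels between members, values less 1 were divided by the length of the mature mRNA in kilobases (kb). Ctsd was the most abundant in each group on this scale by mean level, at 1802 per kb in Treg WT and 2631 per kb in Tconv WT. It made up 35.4% of the summed level of the 9 members per kb in Treg WT and 32.2% in Treg KO, but 53.8% and 49.8% in Tconv of WT and KO mice. In Treg WT the order by mean level went on with Ctsz (995 per kb), Ctsb (826), Ctsa (574), Ctsh (502), Ctsc (250), Ctsl (95.7), Ctss (82.7) and Lgmn (37.5). Within libraries, this order held in 3 of 3 for each pair of neighbours, except for Ctsz over Ctsb, Ctsl over Ctss and Ctss over Lgmn, each in 2 of 3. In Tconv WT the order after Ctsd was Ctsb (612 per kb), Ctss (493), Ctsa (436), Ctsz (316), Ctsc (299), Ctsl (53.8), Ctsh (7.09) and Lgmn (5.36). There the order held in 4 of 4 libraries for each pair of neighbours, except for Ctsb over Ctss, Ctss over Ctsa and Ctsz over Ctsc, each in 2 of 4, and Ctsh over Lgmn, in 3 of 4.

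Shares are a description with no test of their own. The share of Ctsd ranged from 25.05% to 41.6% over the Treg libraries and from 43.1% to 65.1% over the Tconv libraries, with no overlap. Ctsh took 9.68% of the summed level per kb in Treg WT and 13.2% in Treg KO, but 0.15% and 0.66% in Tconv of WT and KO mice, and 0.13% in Tconv KO without Tconv KO 3, where it took 2.78%. Ctsz took 18.4% and 18.6% in Treg WT and KO, and 6.59% and 6.67% in Tconv WT and KO. Ctss took 1.58% and 3.32% in Treg WT and KO, and 10.3% and 11.8% in Tconv WT and KO, but libraries overlapped, from 0.82% to 5.83% in Treg and from 2.97% to 15.1% in Tconv. The summed level of the 9 members, not divided by length, was 12871 ± 2056 (SD, n = 3) in Treg WT, 13004 ± 1363 (n = 4) in Treg KO, 11796 ± 1178 (n = 4) in Tconv WT and 11086 ± 2044 (n = 5) in Tconv KO, with overlapping ranges. Shares are set by all members together, so a share can move because another member moved.

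**Figure D3:**
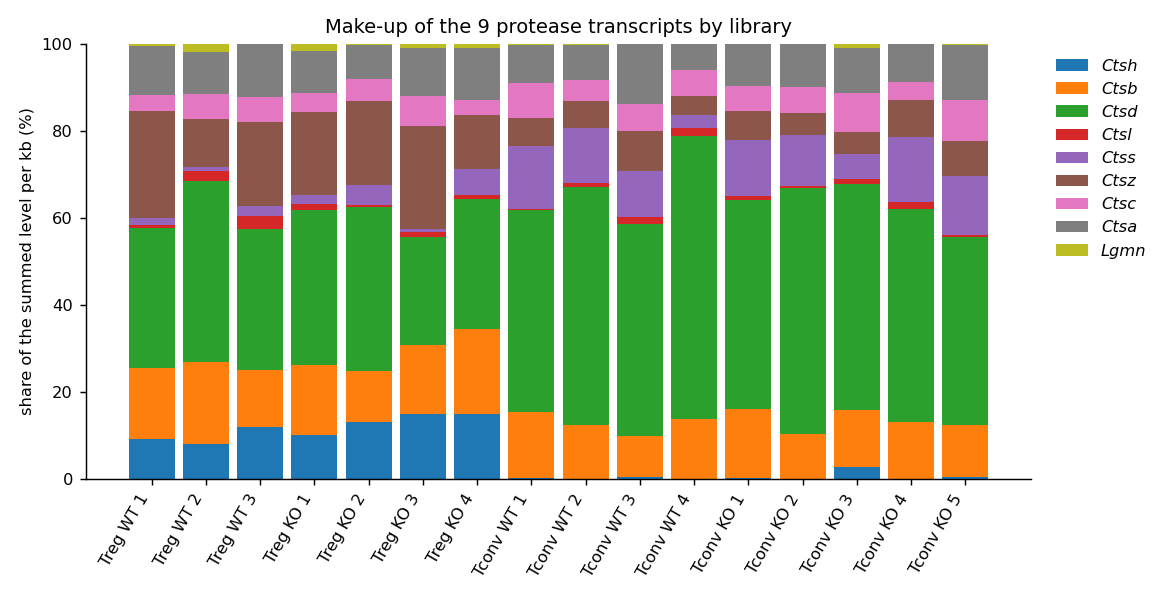
Share of each member in the summed level per kb of the 9 members (stacked bars, percent) in each library. Ctsh is 8.02% or more of each Treg bar and 2.78% or less of each Tconv bar, and Ctsd is the widest block in every bar.

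No member passed the test for a change with loss of Hpgd in Treg. Between Treg KO and Treg WT, limma called 0 of 9 members, 0 had an unadjusted p under 0.05 and the smallest adjusted p was 0.866; voom also called 0, with 0 unadjusted. Over all genes 3 passed (0.021%). Ctsh was higher in each Treg KO library (977 to 1285) than in each Treg WT library (557 to 953), as were 3.35% of all genes (6.01% had no overlap in either direction), but its difference of 0.51 (95% interval -1.69 to 2.70, adjusted p = 0.973) did not pass. The fit pools the spread of all 4 groups, and within Tconv KO Ctsh ran from 1.00 to 169. Neither Ctsh nor any other member passed in any of the 17 alternatives, the fit with only the Treg groups among them.

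Ctsl averaged 390 ± 200 (SD, n = 3) in Treg WT and 213 ± 98.3 (n = 4) in Treg KO, a difference of -0.83 (95% interval -2.18 to 0.51, adjusted p = 0.877). Ctss averaged 113 ± 47.4 (n = 3) and 234 ± 150 (n = 4), a difference of 0.83 (-0.43 to 2.09, adjusted p = 0.866). For Lgmn the difference was 1.28 (-1.25 to 3.81, adjusted p = 0.916), and it turned to -0.24 without the library labelled Treg WT 3, which also had little Hpgd. The remaining members, Ctsb, Ctsd, Ctsz, Ctsc and Ctsa, differed by -0.09 to 0.11. Their 95% intervals lay within -0.62 to 0.85. The median of the 9 was 0.04, beside 0.075 over all genes.

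In Tconv, which Cre driven from Foxp3 does not target, 0 of 9 members passed between KO and WT in limma (0 with an unadjusted p under 0.05, smallest adjusted p 0.968) and 0 by voom. None had groups that did not overlap, against 1.67% of all genes, of which 0% passed. Differences ran from -0.21 to 0.41, with a median of -0.01 beside 0.019 over all genes. The effect of the deletion was compared between Treg and Tconv as a difference of both effects, the same term that compares Treg with Tconv between genotypes, and here too 0 of 9 passed in limma (0 unadjusted) and by voom, against 0% of all genes. These differences ran from -0.77 for Ctsl through 0.58 for Ctss to 1.07 for Lgmn, with 95% intervals of -2.55 to 1.02, -1.10 to 2.26 and -2.29 to 4.44. The gap in Ctss between Treg and Tconv, -2.44 in WT and -1.86 in KO, was thus not shown to differ by genotype.

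**Figure D4:**
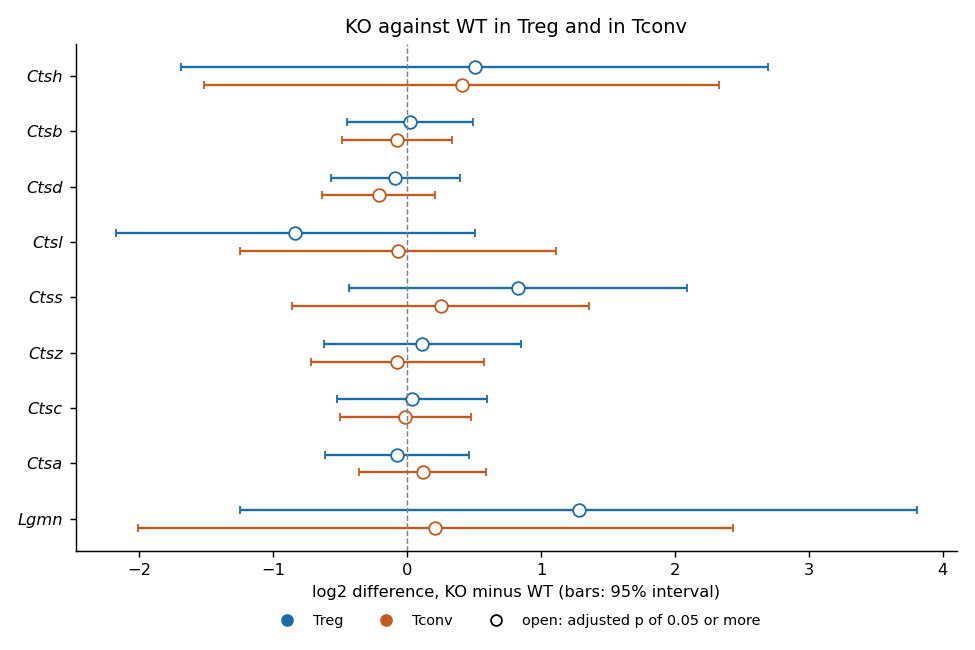
Log2 difference of KO minus WT (horizontal axis) for each member in Treg (blue) and Tconv (orange), with 95% intervals as bars; all points are open because none passed. Every interval includes 0, and those of Ctsh, Lgmn, Ctsl and Ctss are the widest.

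Genes that work beside these proteases were followed in 8 lists, with means ± SD over the libraries of each group (in Treg 3 WT and 4 KO, in Tconv 4 WT and 5 KO). Their counts compare with 4.18% of all genes called in WT (2.2% higher, 1.98% lower) and 6.81% in KO (4.16% higher, 2.65% lower). The lists too were chosen with earlier results of these data known. Of 14 other cathepsin genes, 10 were in the table and 4 were tested, of which 1 was lower in Treg and 0 higher in each genotype (median 0.47 in WT and 0.53 in KO). The lower gene was Ctsw, encoding cathepsin W of cytotoxic lymphocytes, at 107 ± 38.6 in Treg WT and 1487 ± 419 in Tconv WT (-3.81, SE 0.53, adjusted p = 0.000210), and at 385 ± 411 in Treg KO and 1578 ± 139 in Tconv KO (-2.64, adjusted p = 0.00113). Treg KO 1 alone read 980, and without it Ctsw stood at 187 ± 130 (n = 3) in Treg KO (-3.29, adjusted p = 1.76e-05). Ctse, an aspartic protease, read 285 ± 101 in Treg WT and 161 ± 64.3 in Tconv WT (0.87, adjusted p = 0.501), and Ctsf 41.0 ± 37.6 and 6.69 ± 11.4 (3.08, adjusted p = 0.281).

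Protease inhibitors gave 1 higher and 2 lower of 11 tested in WT, and 2 higher and 2 lower in KO (medians -0.02 and 0.51). Serpinb6a, a serpin of the cytosol, was higher in Treg, at 1221 ± 440 against 451 ± 152 in WT (1.42, adjusted p = 0.0138) and 1318 ± 205 against 465 ± 151 in KO (1.55, adjusted p = 0.00147). Serpinb9, the inhibitor of granzyme B, was lower, at 543 ± 136 against 1609 ± 506 in WT (-1.53, adjusted p = 0.00904) and 502 ± 120 against 1583 ± 457 in KO (-1.62, adjusted p = 0.00113). Serpina3g, an inhibitor of cathepsins in T cells, was lower, at 656 ± 768 against 1927 ± 464 in WT (-2.23, adjusted p = 0.0483) and 495 ± 321 against 2607 ± 972 in KO (-2.59, adjusted p = 0.00513). In Treg WT it read 1540 in Treg WT 2 and 281 and 148 in the other two. Its WT call was lost in 10 of 17 alternatives, at adjusted p up to 0.270, among them those without Tconv WT 1, Tconv WT 2, Tconv WT 4, Treg WT 1 or the library labelled Treg WT 3. The WT call of Serpinb6a was lost without Treg WT 1 or the library labelled Treg WT 3, and with only the WT groups in the fit (adjusted p up to 0.0922 over its alternatives). That of Serpinb9 was lost without Treg WT 1 and by voom (up to 0.0705). The fourth gene called in KO was Cst3, the cathepsin inhibitor cystatin C, named after its value was seen (1.14, adjusted p = 0.00579). Serpins are a family of near copies, whose reads may be split between them.

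Among the other peptidases listed, 1 of 8 was higher in WT Treg and 0 in KO. Scpep1, a serine carboxypeptidase, read 279 ± 57.2 in Treg WT and 41.9 ± 36.7 in Tconv WT (3.3, SE 0.89, adjusted p = 0.0393). It read 85.7 ± 30.6 in Treg KO and 84.2 ± 56.1 in Tconv KO (0.40, adjusted p = 0.862). Scpep1 passed neither between Treg KO and Treg WT (-1.75, adjusted p = 0.817) nor for the difference of the effects (-2.90, adjusted p = 0.928). Its WT call was lost in 9 of 17 alternatives, at adjusted p up to 0.157, among them those without any 1 of the Treg WT libraries, Tconv WT 1 or Tconv WT 4. Pepd (1.07, adjusted p = 0.168) and Napsa (-2.76, adjusted p = 0.323) did not pass in WT. Of 34 hydrolases of sugars and lipids, 2 were higher and 0 lower in WT, and 2 higher and 1 lower in KO (medians 0.14 and 0.17). Gm2a, the activator that presents gangliosides to hexosaminidase, read 7421 ± 4264 in Treg WT and 1263 ± 405 in Tconv WT (2.37, SE 0.40, adjusted p = 0.00150), and 7981 ± 1561 and 973 ± 359 in KO (3.09, adjusted p = 1.31e-05). Gla, alpha-galactosidase A, read 1835 ± 767 and 700 ± 370 in WT (1.48, adjusted p = 0.0295) and 1453 ± 439 and 348 ± 88.8 in KO (2.06, adjusted p = 0.000496). The WT call of Gla was lost without Tconv WT 2, Tconv WT 4 or the library labelled Treg WT 3. It was also lost with only the WT groups in the fit and by voom (adjusted p up to 0.176 over its alternatives). Galc, galactosylceramidase, read 405 ± 135 and 137 ± 101 in WT and did not pass (1.75, adjusted p = 0.0853).

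Granule proteases that cathepsin C can activate gave 0 higher and 1 lower of 5 tested in each genotype. Gzmk, granzyme K, read 23.9 ± 19.9 in Treg WT and 1704 ± 229 in Tconv WT (-6.94, SE 1.02, adjusted p = 0.000357), and 27.1 ± 35.7 and 2955 ± 1459 in KO (-7.82, adjusted p = 1.30e-05). Gzma (-3.27, adjusted p = 0.216) and Gzmm (-0.98, adjusted p = 0.757) did not pass in WT. The activator Ctsc, at 714 ± 85.2 and 856 ± 98.3 in Treg WT and Tconv WT, did not pass. Lysosomal membrane and biogenesis genes gave 0 of 24 in WT, with 2 at an unadjusted p under 0.05 (16.3% of all genes), and 1 higher (Laptm4b) and 2 lower (Cd68 and Gnptab) in KO. The vacuolar proton pump gave 0 of 14 in both genotypes, with 2 and 6 at an unadjusted p under 0.05 (16.3% of all genes in WT and 18.7% in KO). MHC class II genes, in whose loading cathepsins clear the invariant chain, gave 1 higher (H2-Eb1) and 0 lower of 11 in WT, and 1 higher (H2-Eb1) and 1 lower (H2-Ob) in KO. With Tconv KO 3, Tconv WT 1 and Tconv WT 3 left out, Cd74 and H2-Ab1 passed in WT in place of H2-Eb1, and H2-Ob no longer passed in KO. Under the same omission Tfe3 was higher in WT, Mitf was higher in KO, and Atp6v0a2 and Gzma were lower in KO, while Sgsh, lower in KO with all libraries, no longer passed. Genes of these last 3 lists, Gzma in KO and Sgsh are named because they passed, after their values were seen.

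Over the 111 tested genes of the 8 lists, 5 were higher and 4 lower in WT Treg by limma, and 2 and 2 by voom, beside 4.18% of all genes called by limma (6.81% in KO). With Tconv KO 3, Tconv WT 1 and Tconv WT 3 left out, the counts were 7 and 3 of 110. In KO they were 6 and 8 by limma, 11 and 7 by voom, and 7 and 8 without those libraries. Of all 14319 genes tested, voom called 288 in WT and 1027 in KO. Without those libraries limma called 541 in WT and 1026 in KO of 13950 genes. Between KO and WT, limma and voom called 0 of the 111 in Treg (6 and 5 with an unadjusted p under 0.05), 0 in Tconv (13 and 14), and 0 for the difference of the effects (9 and 8). By limma, 6.22%, 5.45% and 5.22% of all genes had such a p in these comparisons.

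**Figure D5:**
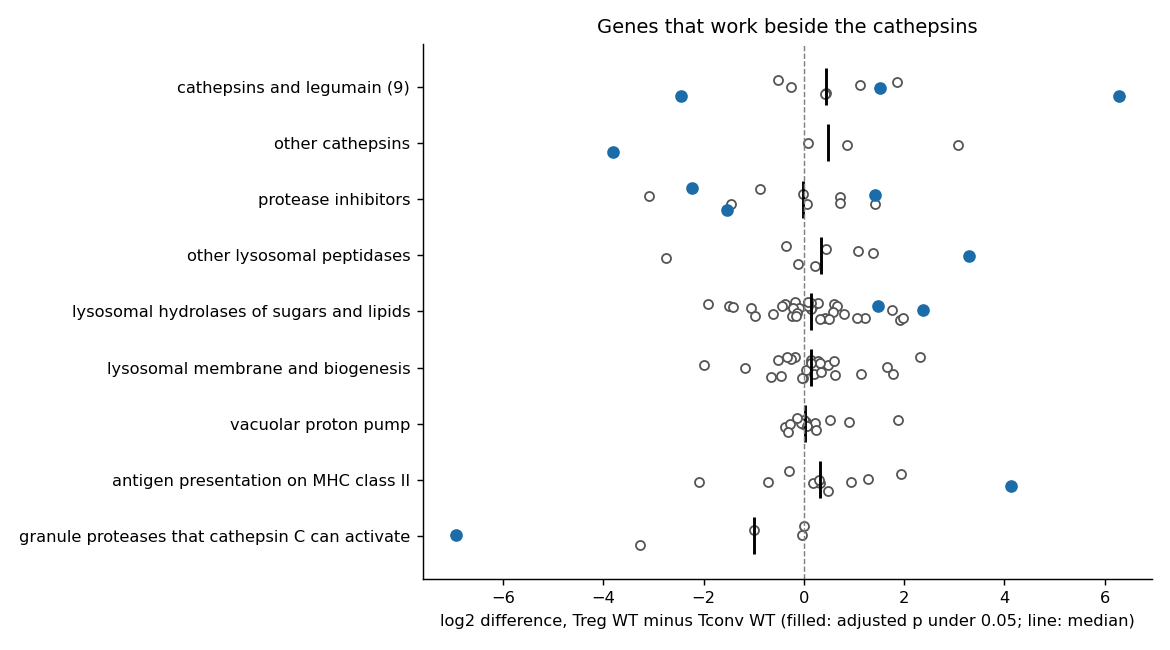
Log2 difference of Treg WT minus Tconv WT (horizontal axis) for every tested gene (points) of the 9 members and of the 8 lists (rows), filled where the adjusted p was under 0.05, with the median of each row as a line. Medians run from -0.98 for the granule proteases to 0.47 for the other cathepsins, and the filled points farthest right and left are Ctsh and Gzmk.

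By Pearson r of log2 values over the 16 libraries, the genes most like each member that passed in both genotypes were named, as a description, since all points share the division into Treg and Tconv. For Ctsh these were Pim1, a survival kinase (r = 0.946), Gata3, a transcription factor of type 2 and fat Treg cells (0.943), and Nfkb1, an NF-kB subunit (0.942). Pim1 averaged 6299 and 6909 in Treg WT and KO, and 1393 and 1578 in Tconv WT and KO. For Ctsz they were Nmur1, the neuromedin U receptor (r = 0.950), Pcdh19, a protocadherin (0.935), and Ehd4, a protein of endosome recycling (0.921). Nmur1 averaged 187 and 249 in Treg WT and KO, and 4.28 and 1.18 in Tconv WT and KO. For Ctss they were Zadh2 (r = 0.917), Kansl2 (0.880) and Asap1 (0.872), whose means in Treg WT and Tconv WT were 79.1 and 216, 219 and 617, and 231 and 726. Among the members themselves, after group means were taken out, r ran from -0.56 for Ctsh with Ctsd to 0.58 for Ctsz with Ctsa (n = 16 libraries).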

How the data were processed

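The 16 RNA-seq libraries were prepared by SMART-seq2, which covers whole transcripts without marking their strand, from 10 ng of RNA of cells sorted from collagenase-digested fat, per the labels' protocols, and sequenced on an Illumina NextSeq with bcl2fastq2 2.20. Tools listed by the submitters' processing notes, with no roles, are kallisto 0.44, CASAVA 1.8, DESeq2, Partek 6.6 and R 3.3.1, with the build mm10. Not given in the sources used here are the annotation and the strand setting of the counting. The authors deposited a signal per gene, which its values show to be reads over a library's size factor with 1 added: after 1 was taken off, 100% of the values under 1000 reads were whole multiples within 0.1 of a read (largest distance 0.00477). Totals of 3.39 to 56.7 M reads and floors (the value of 3 reads) of 1.38 to 7.09 come from these steps and cover counting error only.

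From these values, log2(value + 1) was fitted in limma 3.58.1 (R 4.3.3) with a mean-variance trend, all 16 libraries and 1 mean per group, for the 14319 genes that reached 10 in 3 libraries or more. The 5 comparisons were Treg against Tconv in WT and in KO, KO against WT in Treg and in Tconv, and the difference of these effects, each 2-sided with Benjamini-Hochberg adjustment. The fit was tested on simulated data. The alternatives were no pseudocount and 10, no filter and 50, quantile and TMM scaling, only the groups compared, the replicate number as a block, voom on reads, and each library left out. A fit with Tconv KO 3, Tconv WT 1 and Tconv WT 3 left out was added after seeing the data.

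The 9 members and all lists were chosen with earlier results of these data known. Named besides the members were Hpgd, Foxp3 and Cd4, the 3 genes with the smallest p in WT of each of 5 lists described, and the 3 genes most like each member that passed in both genotypes, leaving out antigen receptor segments and genes with only an identifier. Marker sums add the values less 1. Positions are from GENCODE M21 (GRCm38), which held 98.4% of the symbols. Length is the mean over basic coding transcripts. Promoters are from RefSeq (GRCm38.p6). Python 3.11.15 was used for summaries and figures.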

Additional observations from a re-analysis of the deposited data

Results flagged for a closer look

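Within groups of 4 or 5 libraries, 27 sets of member values were checked for a library far from the others, and 4 had one. The check used the values themselves and not the log2 scale of the fits. Chance alone marks about 1 in 20 such sets where values are normally distributed, which was not tested for these. Ctsh in Tconv KO 3 stood at 169, with the next value at 20.5, and Lgmn in Tconv KO 3 at 60.3, with the next at 17. Both belong to the deepest library, with 56.7 M reads. Ctsb in Tconv WT 3 was low, at 2030 with the next value at 3104, in the library rich in red cell transcripts. Ctsa in Treg KO 2 was low, at 1195 with the next value at 1803. The part that depth or other cells have in these values was not tested.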

How the results depend on the processing

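In WT, the count of members higher in Treg was 1 in place of 2 with only the groups compared and by voom, and 1 to 2 with a library left out; the count lower was 0 in place of 1 by voom and with Tconv KO 3, Tconv WT 1 and Tconv WT 3 left out, and 0 to 1 with a library left out. In KO, the count lower was 0 in place of 1 with no filter on low values, by voom and with the replicate block, and 0 to 1 with a library left out, while the count higher was 2 to 3. With the replicate number as a block, Ctss in KO was -1.84 (adjusted p = 0.0830), and no other member changed its call. The numbers share no source in the labels: deviations of same-numbered libraries correlated at -0.037 to 0.0787 over 21 pairs, and of other libraries at -0.0743 to 0.0753 over 74. Signs changed in 0 of 153 and 0 of 171 member values between Treg and Tconv in WT and KO. Between KO and WT they changed in 13 of 153 for Treg and 25 of 171 for Tconv, and in 19 of 225 for the difference. Of those named, Lgmn turned to -0.24 in Treg and to -0.45 in the difference without the library labelled Treg WT 3, and in the difference Ctsl turned to 0.028 and Ctss to -0.11 with those 3 libraries left out. With each library left out in turn, Lgmn ran from -0.24 to 2.36 in Treg and from -0.45 to 2.15 in the difference. Over all genes, 288 by voom and 341 with only the groups compared passed in WT, against 599. The cause of these changes was not tested. The tests of edgeR and DESeq2 planned for the reads were not run. The deposited unit is not counts, and voom was the only test run on the reads recovered from it. Ctsh and Lgmn stood at or under 3 reads in some Tconv libraries, and the part of depth in this was not tested.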
